A study of Rattus norvegicus with 54 samples.

Results

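The response to birth was compared between 2 tissues of the Wistar rat, liver and hind limb skeletal muscle, as the change from the last foetal day measured to the first postnatal day. The changes were taken from 18 of 54 arrays, chosen by their labels, while the spread behind the tests was estimated from 45 arrays of both tissues at 5 ages. They were 4 liver and 5 muscle arrays of F22, which are 22-day-old foetuses, and 4 liver and 5 muscle arrays of P1, which are 1-day-old pups. No animal carried a transgene or received a treatment, the foetuses were delivered by Caesarean section, and their total RNA was measured on Affymetrix whole-transcript gene arrays. Whether animals of a group shared a litter, whether liver and muscle came from the same animals, and the hour of sampling were not stated in what was read here, so that p-values measure only the spread between these arrays. The deposited values are log2 signals, with array medians of 7.06 to 7.16 in liver and 7.98 to 8.07 in muscle over the 45 arrays. Normalisation of each tissue on its own was inferred from these values. Only changes were therefore compared between the tissues, and never levels.

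At birth the supply of glucose through the placenta ends and milk, which is rich in fat, begins. The newborn liver is known to start making glucose and ketone bodies, to begin bile acid synthesis and drug metabolism, and to stop being the site of blood formation. Skeletal muscle turns from glucose towards fatty acids. Glucocorticoids, catecholamines and glucagon are high around birth and act on both tissues.

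Each of 14506 genes was given 3 values, all in log2 units and from limma: the change in liver (P1 minus F22), the change in muscle, and the difference of these changes (liver minus muscle). A gene passed where its p, adjusted by Benjamini-Hochberg, did not exceed 0.05. A gene is said to have risen or fallen only where it passed, and errors of changes are standard errors. The cells of a tissue were not separated, so that fewer cells of a type and less RNA per cell cannot be told apart.

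A pair of arrays lay apart from their groups. On a scale where 0 is the mean of the other F22 arrays of the tissue and 1 the mean of its other P1 arrays, liver P1 replicate 1 lay at 0.68 and muscle F22 replicate 5 at 0.64. The other liver arrays lay between -0.0074 and 0.10 at F22 and between 0.98 and 1.02 at P1, and the other muscle arrays between -0.066 and 0.071 at F22 and between 0.73 and 1.03 at P1. Leaving out both arrays changed the number of genes that passed the difference from 4266 to 4522. RNA of neighbouring tissue was also seen. The mean signal of 10 muscle fibre markers ranged from 6.93 to 8.94 in liver at F22 against 6.83 to 6.90 at P1, and *Acta1*, the actin of muscle fibres, measured 11.85 and 10.12 in liver F22 replicates 1 and 4 but 8.2 and 8.34 in replicates 2 and 3. In muscle the mean of 14 hepatocyte markers ranged from 7.55 to 8.44 at F22 and from 7.40 to 8.05 at P1. Contractile genes are for this reason not described for liver. Without liver F22 replicates 1 and 4, and so with fewer arrays, 1555 genes rose and 2517 fell in liver, against 2053 and 2878 with them. The difference then passed for 1373 genes towards liver and 2316 towards muscle, against 1721 and 2545. Both tissues showed their own markers, with 14 hepatocyte markers at a mean of 12.76 to 13.03 in the liver arrays and 10 fibre markers at 12.36 to 12.66 in the muscle arrays. The muscle arrays also held a high signal of 6 keratinocyte markers, which are genes of skin. Their mean ranged from 11.67 to 12.28 at F22 and from 11.75 to 12.31 at P1.

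**Figure D1:**
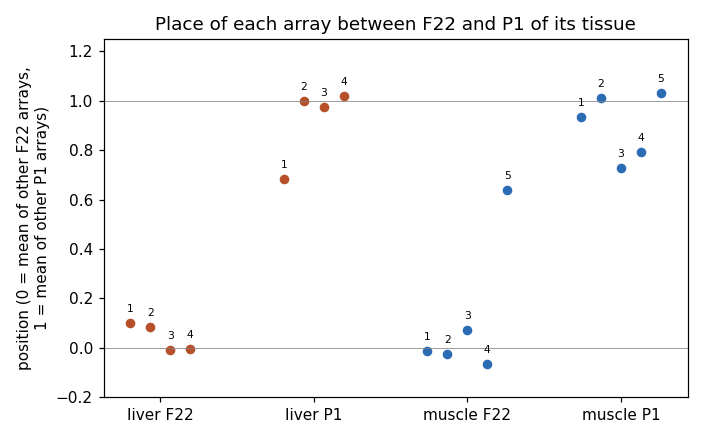
Each point is 1 array, numbered by its replicate, and the y axis gives its place between the F22 mean (0) and the P1 mean (1) of the other arrays of its tissue, over all genes and without a unit. Liver P1 replicate 1 (0.68) and muscle F22 replicate 5 (0.64) lie between the time points, the others near their own.

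More genes passed in liver than in muscle, by a margin that depended on how the arrays were weighted. In liver 2053 genes rose (14.2% of all tested) and 2878 fell (19.8%), while in muscle 1294 rose (8.92%) and 1158 fell (7.98%). With arrays weighted by their quality 4930 genes passed in liver and 4435 in muscle, and with the spread taken from the 18 arrays alone 3783 and 2494. Changes of at least 1 log2 unit were passed by 469 genes in liver and 61 in muscle. The difference of the changes passed for 1721 genes in the direction of liver above muscle (11.9%) and for 2545 in the direction of muscle above liver (17.5%), and 443 of these differences reached 1 log2 unit. The 18 arrays alone gave 3780 differences in place of 4266. Over all genes the median change was 0.0083 in liver and -0.0093 in muscle. Normalisation of the arrays of a tissue holds this median near 0, so that a shift of a whole tissue could not be seen. Across genes, which are not independent replicates, the changes of the tissues correlated with a Pearson r of 0.195.

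Genes were sorted by these calls. A shared rise was seen for 374 genes (2.58%) and a shared fall for 490 (3.38%), together 17.5% of the genes called in liver and 35.2% of those called in muscle. For 526 of the 864 shared genes the difference of the changes did not pass, which does not show that the changes were equal. Opposite changes, with a passing difference, were seen for 83 genes that rose in liver and fell in muscle (0.572%) and for 151 that fell in liver and rose in muscle (1.04%). A change in 1 tissue, with a passing difference and no call in the other, was seen for 1068 rises and 1627 falls of liver and for 397 rises and 277 falls of muscle. The 95% confidence interval of the other tissue's change lay within 0.5 log2 units of 0 for 1014 and 1566 of the liver genes and for 355 and 254 of the muscle genes. A gene that a tissue does not express cannot change there, and of these 1014 liver rises 523 had a muscle signal above the median of all genes.

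**Figure D2:**
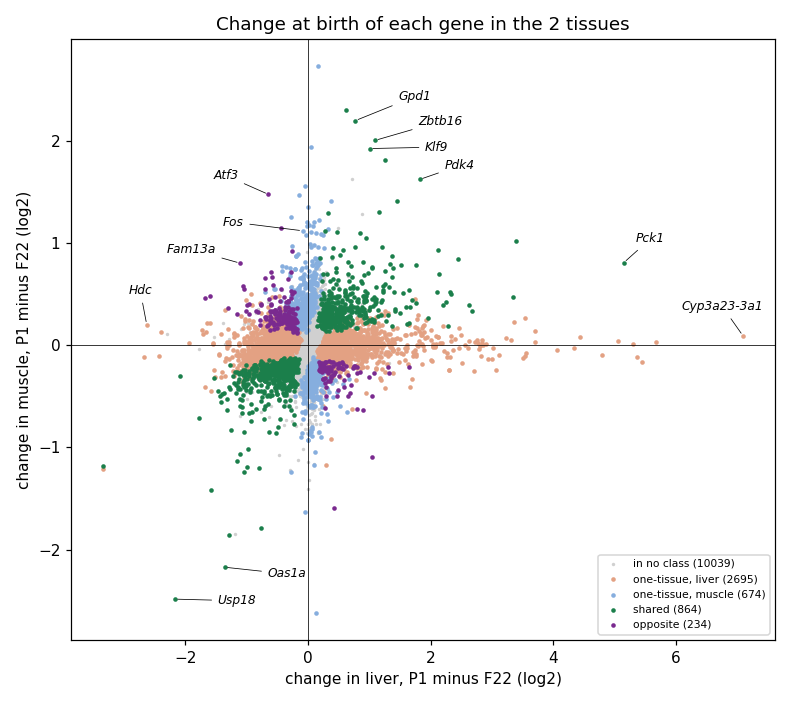
Each point is 1 gene, with its log2 change from F22 to P1 in liver on the x axis and in muscle on the y axis, coloured by class with the number of genes in the legend. Liver-led rises run out along the x axis to *Cyp3a23-3a1* at 7.10, while shared genes lie in the upper right and lower left.

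The widest differences towards liver were those of enzymes that the liver needs after birth. *Cyp3a23-3a1*, a cytochrome P450 of drug and steroid metabolism, measured 6.10, 5.40, 5.26 and 4.86 in liver at F22 and 11.34, 12.92, 12.87 and 12.88 at P1. Its muscle arrays stayed between 4.13 and 4.68 at both ages. The change was 7.10 ± 0.33 in liver and 0.09 ± 0.12 in muscle, and the difference 7.0 ± 0.34 (adjusted p = 2.72e-19). Its muscle signal was higher than that of only 2.3% of genes, near the floor of the array. *Cyp3a2*, *Cyp2b1*, *Cyp2e1* and *Cyp2b2*, of the same superfamily, rose in liver by 5.68, 5.45, 5.30 and 4.80, with muscle changes between -0.16 and 0.03. *Cyp4a1*, which hydroxylates fatty acids, rose by 5.37 in liver, and *Orm1*, an acute phase protein of plasma, by 4.44. In each of these genes the lowest liver P1 array was above the highest F22 array. Members of the *Cyp3a*, *Cyp2b* and *Cyp4a* families are nearly identical in sequence, so that a probe set may read its neighbours too and the single-gene values are uncertain. Among 26 genes of drug metabolism, liver had 20 rises and 2 falls and muscle 4 rises and 1 fall, and the difference passed for 19 towards liver and 3 towards muscle.

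Bile acid synthesis and transport rose in liver. In liver 16 of the 18 measured genes rose and 0 fell, while in muscle 0 rose and 0 fell, and the difference passed for 16, all towards liver. With the 2 arrays that lay apart left out, 17 rose in liver and 1 of the list rose in muscle, as a shared rise. *Cyp8b1*, the sterol 12-hydroxylase that decides the kind of bile acid made, measured 7.67, 7.13, 7.14 and 6.83 at F22 and 11.64, 12.47, 12.48 and 12.43 at P1 in liver. The muscle arrays measured between 6.49 and 6.78 at both ages, and the difference of changes was 5.03 ± 0.22 (adjusted p = 9.61e-21). *Slc27a5*, which activates bile acids for conjugation, rose by 3.31 in liver, and *Nr0b2*, the repressor of bile acid synthesis, by 3.02. *Cyp7a1*, the rate-limiting enzyme, rose by 1.72, *Abcb11*, the export pump of bile salts, by 1.84, and *Slc10a1*, their uptake carrier, by 1.90. Muscle changes of these 6 genes lay between -0.06 and 0.05. *Abcb11* measured 6.18 to 6.63 in the muscle arrays, and it and *Cyp8b1* lay below the muscle array medians of 7.98 to 8.07. A gene that a tissue does not express cannot change there, so that the absence of muscle calls is limited by the signal. *Amacr*, of the same list, measured 8.54 to 8.85 in muscle. The median change of the list was 1.73 in liver and -0.03 in muscle, against 0.0083 and -0.0093 over all genes.

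Amino acid breakdown and the urea cycle followed in liver. Of 27 genes of amino acid breakdown 19 rose in liver and 8 in muscle, with 2 falls in each, and the difference passed for 17 towards liver and 3 towards muscle. Without the arrays that lay apart 5 fell in liver and 3 were opposite, against 1 with them. *Agxt*, which clears glyoxylate, rose by 2.09 in liver and changed by 0.01 in muscle, where its signal was low at 6.82 to 7.09. *Hal*, which starts the breakdown of histidine, was among 4 genes of the list with a rise in both tissues. Of 7 urea cycle genes 4 rose in liver and 0 passed in muscle, led by *Asl*, argininosuccinate lyase, at 1.94 in liver and 0.08 in muscle.

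**Figure D3:**
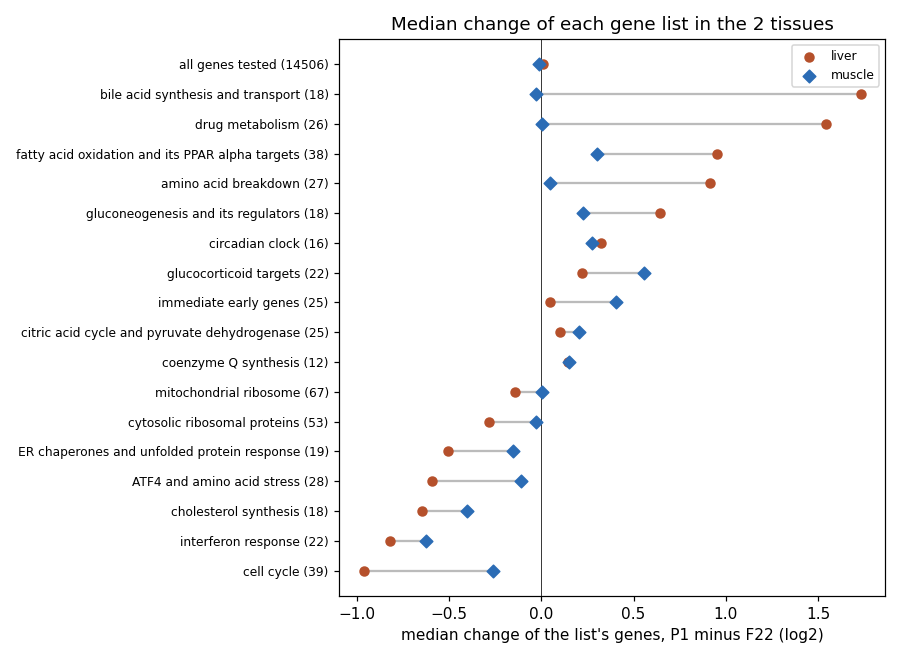
For each gene list (number of measured genes in brackets) the circle gives the median log2 change from F22 to P1 in liver and the diamond that in muscle. Bile acid genes lie far apart at 1.73 and -0.03, while the clock list (0.33 and 0.28) and the coenzyme Q list (0.14 and 0.15) lie together.

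Fatty acid oxidation rose in both tissues, and more so in liver. The enzymes of this list take fatty acids into mitochondria and shorten them, and many are targets of the receptor PPAR alpha. In liver 32 of its 38 measured genes rose and 2 fell, in muscle 25 rose and 0 fell, and 21 rose in both. The difference passed for 27 genes towards liver and 4 towards muscle, and the median change was 0.95 in liver and 0.30 in muscle. *Cpt1a*, the gate for fatty acid entry into mitochondria, measured 10.49, 10.25, 9.35 and 9.65 in liver at F22 and 12.15, 12.73, 12.65 and 12.73 at P1. Its muscle values were 8.92, 8.90, 8.98, 8.91 and 8.79 and then 9.10, 9.51, 9.09, 9.49 and 9.26. Both tissues were without overlap between the ages, with changes of 2.63 in liver and 0.39 in muscle and a difference of 2.24 (adjusted p = 8.86e-11). *Acadm* and *Acadvl*, the medium-chain and very-long-chain acyl-CoA dehydrogenases, rose by 1.10 and 1.02 in liver and by 0.43 and 0.37 in muscle.

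Some genes of the same list did otherwise. *Etfa* and *Etfb*, which pass electrons from these dehydrogenases towards coenzyme Q, rose by 0.37 and 0.32 in liver and by 0.27 and 0.33 in muscle, and neither difference passed (adjusted p = 0.550 and 0.949). *Ucp3*, a mitochondrial carrier of muscle, and *Lpl*, the lipase that frees fatty acids from lipoproteins, rose in muscle by 0.63 and 1.14 and had liver changes of 0.02 and 0.33 that did not pass. *Cd36*, the fatty acid transporter of the cell surface, moved in opposite directions. It measured 11.42, 11.07, 11.33 and 11.35 in liver at F22 and 10.60, 10.84, 10.88 and 10.5 at P1. In muscle it measured 10.79, 10.70, 11.03, 10.76 and 10.93 at F22 and 11.52, 11.73, 11.35, 11.15 and 11.79 at P1. All liver arrays were lower and all muscle arrays higher at P1, and the difference was -1.25 ± 0.17 (adjusted p = 1.67e-07). *Ucp2*, another mitochondrial carrier, fell by 0.54 in liver and rose by 0.35 in muscle.

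*Pdk4*, the kinase that shuts off pyruvate dehydrogenase and so spares glucose, had the largest shared rise under the naming rule, which ranks genes by the smaller of their 2 changes. It measured 9.77, 9.81, 9.41 and 9.14 in liver at F22 and 12.29, 10.87, 11.19 and 11.07 at P1. The muscle arrays measured 9.17, 9.01, 9.04, 9.06 and 9.83 at F22 and 10.55, 11.38, 10.47, 10.97 and 10.87 at P1. The ages did not overlap in either tissue. The change was 1.82 ± 0.24 in liver and 1.62 ± 0.18 in muscle, and the difference of 0.20 ± 0.30 did not pass (adjusted p = 0.676). The highest liver value was that of replicate 1, and the highest F22 muscle value that of replicate 5, the arrays that lay apart. Of the other kinases of the complex, *Pdk2* rose in liver from a mean of 9.02 to 10.28 and *Pdk3* fell there from 9.90 to 8.87, with muscle changes of 0.33 and -0.25 that did not pass. The subunits *Pdha1* and *Pdhb* rose in both tissues, by 0.45 and 0.46 in liver and by 0.41 and 0.46 in muscle.

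Coenzyme Q carries electrons between the complexes of the respiratory chain, and its synthesis was the subject of the study. In liver 3 of its 12 measured genes rose and 1 fell, in muscle 4 rose and 0 fell, and 3 rises were shared. Over all genes 14.2% rose and 19.8% fell in liver, 8.92% rose and 7.98% fell in muscle, and 2.58% rose in both. *Coq8a*, an atypical kinase needed for coenzyme Q synthesis, measured 8.69, 8.44, 8.50 and 8.22 in liver at F22 and 9.26, 9.25, 9.55 and 9.55 at P1. Its muscle values were 8.43, 8.04, 8.40, 8.07 and 9.28 at F22 and 9.50, 9.75, 9.30, 9.25 and 9.67 at P1. The liver ages did not overlap, and the muscle ages did through F22 replicate 5 alone. The rise was 0.94 ± 0.11 in liver and 1.05 ± 0.17 in muscle, and the difference of -0.11 ± 0.22 did not pass (adjusted p = 0.766). *Coq9*, a lipid-binding member of the complex, rose by 0.27 and 0.25, and *Coq10a*, which binds coenzyme Q, by 0.55 and 0.36. The methyltransferases *Coq3* and *Coq5* were the members whose difference passed, both towards muscle. These 2 of 12 genes are a share near the 17.5% of all genes that passed in that direction. *Coq3* rose by 0.28 in muscle and changed by -0.12 in liver (difference -0.40, adjusted p = 0.00226), and *Coq5* fell by 0.26 in liver and changed by 0.14 in muscle (difference -0.40, adjusted p = 0.0130). With the 2 arrays that lay apart left out, 2 of the rises were shared and 3 differences passed. For *Coq2*, *Coq4*, *Coq6*, *Coq7*, *Coq8b*, *Coq10b* and *Pdss2* no call was made in either tissue or in the difference.

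Genes of glucose production rose in both tissues, with the widest single differences towards liver. Among 18 genes of gluconeogenesis and its regulators, liver had 13 rises and 3 falls and muscle 9 rises and 2 falls, of which 7 rises and 2 falls were shared. The difference passed for 8 towards liver and 2 towards muscle, and the median difference was 0.16. *Pck1*, phosphoenolpyruvate carboxykinase, measured 8.03, 8.25, 6.44 and 7.33 in liver at F22 and 12.61, 12.60, 12.83 and 12.61 at P1, a rise of 5.15. It rose in muscle too, by 0.81, with overlapping ages, and the difference was 4.34 (adjusted p = 1.71e-13). *G6pc1*, which releases free glucose, rose by 2.76 in liver and changed by 0.05 in muscle. *Pc*, pyruvate carboxylase, rose by 0.89 in liver and 0.82 in muscle, and *Foxo1*, a regulator of the fasting programme, by 0.41 and 0.56, with differences that did not pass. *Gpd1*, glycerol-3-phosphate dehydrogenase, rose more in muscle, by 2.20 against 0.77. This enzyme is also abundant in fat cells, and adipocyte markers moved with it in muscle. Of 10 such markers 9 rose and 0 fell there, and their mean signal ranged from 7.64 to 8.32 at F22 and from 8.05 to 9.79 at P1. *Adipoq*, the fat cell hormone, rose by 2.73 with overlapping ages. Its F22 arrays measured 6.41 to 8, and P1 replicate 4 measured 7.05 against 9.31 to 10.92 in the other P1 arrays. *Lpl*, *Cd36* and *Pnpla2*, a lipase of fat droplets, are likewise found in fat cells, and the part of these cells in the muscle rises was not tested.

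The clock and the targets of glucocorticoids moved in both tissues. Among 16 clock genes, liver had 9 rises and 1 fall and muscle 10 rises and 0 falls, and 6 rose in both. *Nr1d2*, a repressor of the clock, read 8.12, 8.21, 7.82 and 8.03 in liver at F22 and 9.66, 9.39, 9.04 and 8.92 at P1. Its muscle arrays went from between 8.46 and 8.92 to between 9.50 and 9.89. The rise was 1.21 in liver and 0.96 in muscle, and the difference did not pass (adjusted p = 0.247). The period genes were unlike it. *Per2* rose by 0.92 in muscle and fell by 0.26 in liver (difference -1.18, adjusted p = 2.59e-10), and *Per1* rose by 0.95 in muscle with a liver change of 0.25 that did not pass. Without the arrays that lay apart no clock gene fell in liver, so that the liver fall of *Per2* was lost. Since the hour of sampling is not given, the age and the hour cannot be told apart for these genes.

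Of 22 glucocorticoid targets 7 rose and 1 fell in liver, whereas 15 rose and 0 fell in muscle, and the difference passed for 3 towards liver and 10 towards muscle. *Klf9*, a transcription factor induced by glucocorticoids and thyroid hormone, measured 8.65, 8.57, 8.44 and 8.34 in liver at F22 and 10.30, 9.18, 9.43 and 9.13 at P1. In muscle it measured between 8.08 and 8.29 at F22 and between 9.90 and 10.19 at P1. It rose by 1.01 ± 0.20 in liver and 1.93 ± 0.10 in muscle, and the difference of -0.92 ± 0.22 passed (adjusted p = 0.00116). *Zbtb16*, a zinc finger factor, behaved alike with rises of 1.10 and 2.01. *Fkbp5*, a co-chaperone of the receptor, rose by 1.09 in muscle and changed by 0.21 in liver, and *Sgk1*, a kinase, rose by 0.75 in muscle and changed by -0.21 in liver. *Tat* and *Pck1*, the classical targets in liver, went the other way, with rises of 2.32 and 5.15 in liver. Liver P1 replicate 1 held the highest value of the P1 liver arrays for *Klf9* and *Zbtb16*. Without it and muscle F22 replicate 5, 5 of the list rose and 3 fell in liver, and 14 rose in muscle.

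Immediate early genes, which answer stimuli within minutes, moved in muscle. Of 25 measured genes 15 rose and 0 fell in muscle, 2 rose and 2 fell in liver, and the difference passed for 13, all towards muscle. *Fos* measured 8.60, 8.47, 8.56, 8.64 and 8.75 in muscle at F22 and 10.21, 8.99, 9.74, 9.52 and 10.16 at P1. In liver it measured 6.76, 6.57, 6.56 and 6.86 and then 6.76, 6.4, 6.68 and 6.55. All muscle arrays were higher at P1 and the liver ages overlapped, with a difference of -1.21 (adjusted p = 1.67e-05). *Nr4a1*, an orphan nuclear receptor, rose by 1.23 in muscle and changed by 0.18 in liver. *Atf3* and *Egr1* rose in muscle by 1.48 and 0.58 and fell in liver, with changes of -0.65 and -1.06. With the 2 arrays that lay apart left out, 1 gene of the list rose and 6 fell in liver, and the difference passed for 17 towards muscle. The foetuses were delivered by section after the mothers were killed, and the handling of the pups was not stated in what was read here, so that age and handling cannot be told apart for these genes.

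**Figure D4:**
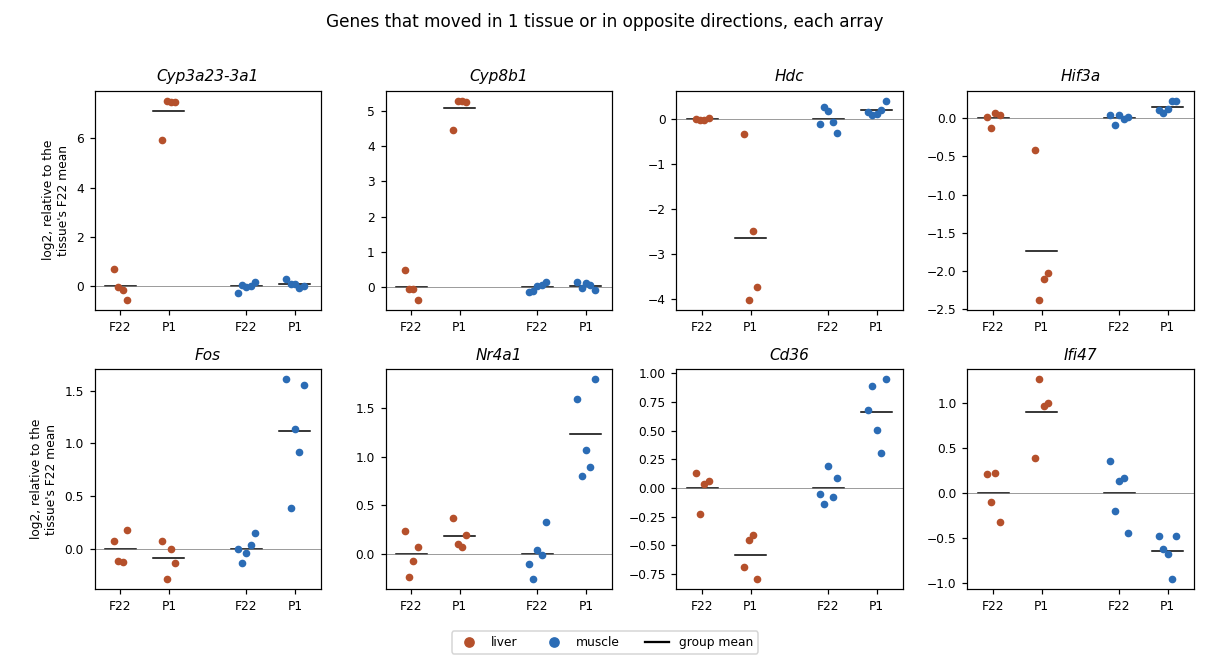
Each point is 1 array, given as log2 signal minus the F22 mean of its own tissue (y axis, scale differs between panels), with liver left and muscle right in each panel and black lines for group means. *Cyp3a23-3a1*, *Cyp8b1*, *Hdc* and *Hif3a* moved in liver, *Fos* and *Nr4a1* in muscle, and *Cd36* and *Ifi47* in opposite directions.

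The lowest differences were falls of liver. *Hdc*, which makes histamine, measured 13.33, 13.31, 13.30 and 13.34 in liver at F22 and 13, 9.3, 10.84 and 9.60 at P1. In muscle its change of 0.20 did not pass. The difference was -2.84 ± 0.56 (adjusted p = 1.08e-04). *Hif3a*, a hypoxia-inducible factor, measured 10.90, 10.76, 10.95 and 10.92 in liver at F22 and 10.47, 8.50, 8.77 and 8.85 at P1, and changed by -1.73 in liver and 0.15 in muscle. In both genes liver P1 replicate 1 stood nearest to the F22 arrays. *Slc1a4*, a carrier of neutral amino acids, and *Mllt3*, a chromatin reader, fell in liver, with changes of -1.65 and -1.71 against 0.22 and 0.11 in muscle. *Serpina6*, the globulin that carries corticosteroids in plasma, fell in liver, with a change of -2.43.

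Genes of red cell formation fell in liver. All 12 erythroid markers measured fell in liver, while muscle had 1 rise and 0 falls, with 8 differences, all towards muscle. The mean signal of these markers ranged from 11.11 to 11.39 in liver at F22 and from 9.97 to 10.48 at P1. The embryonic-type globin genes *Hbe1* and *Hbg1*, whose probes may also read other globins, fell in liver, with changes of -3.34 and -2.68. In muscle *Hbe1* measured 11.36, 11.83, 12.37, 11.41 and 8.31 at F22 and 9.63, 10, 9.73, 10.32 and 9.56 at P1, a change of -1.21 that did not pass (adjusted p = 0.0790), with F22 replicate 5 below all P1 arrays. Without the arrays that lay apart, 4 erythroid markers fell in muscle. Of 13 genes of haem synthesis and breakdown 9 fell in liver, among them *Uros* with a change of -1.13. Cell cycle genes fell with them. Of 39 measured, 39 fell in liver and 20 in muscle, none rose in either, and the difference passed for 38 towards muscle, since the fall was deeper in liver (median -0.96 against -0.26). With the 2 arrays that lay apart left out, 32 fell in muscle. *Ccnb1*, the mitotic cyclin, fell, with changes of -1.17 in liver and -0.39 in muscle. *Skp2*, which marks cell cycle inhibitors for breakdown, fell, with changes of -0.97 and -0.67, without overlap of the ages in either tissue. Markers of other blood cells did not move as the erythroid ones did. In liver 3 of 7 megakaryocyte markers rose and 1 fell, and 2 of 5 markers of B cell precursors rose and 0 fell. Of 14 granulocyte markers 3 rose and 2 fell, and of 13 macrophage markers 1 rose and 2 fell. Over all genes 14.2% rose and 19.8% fell in liver, and the granulocyte counts lay near these shares. The difference passed for 5 granulocyte markers towards liver and 0 towards muscle, against 11.9% and 17.5% of all genes. The part of blood-forming cells in the liver falls was not tested.

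Protein synthesis and its stress responses fell mostly in liver. Of 53 cytosolic ribosomal protein genes 42 fell in liver and 0 passed in muscle, and the difference passed for 37, all towards muscle, at a median change of -0.28 in liver and -0.03 in muscle. Of 67 mitochondrial ribosome genes 25 fell and 2 rose in liver, and 1 fell and 9 rose in muscle. Of 19 genes of the endoplasmic reticulum chaperones and the unfolded protein response 14 fell in liver and 5 in muscle, among them *Hyou1*, with changes of -1.05 and -0.41. Without the arrays that lay apart 11 of them fell in muscle. Of 28 genes of ATF4 and amino acid stress, 19 fell in liver and 9 in muscle, 4 rose in each, and 7 falls were shared. *Asns*, asparagine synthetase, measured 11.83, 12.12, 11.85 and 12.20 in liver at F22 and 10.97, 10.56, 10.73 and 10.70 at P1. The muscle arrays measured 11.31, 11.11, 11.62, 11.35 and 10.90 at F22 and 10.44, 10.47, 10.22, 10.20 and 10.82 at P1. The ages did not overlap in either tissue, and the difference of -0.43 ± 0.19 did not pass (adjusted p = 0.0832). *Atf4* itself, the factor that names the list, fell by 0.29 in liver and rose by 0.32 in muscle (difference -0.61, adjusted p = 2.91e-06). *Slc7a1*, a carrier of basic amino acids, likewise fell by 1.16 and rose by 0.30.

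Cholesterol synthesis fell in both tissues. Of 18 measured genes 13 fell and 1 rose in liver, 14 fell and 0 rose in muscle, and 11 falls were shared, while the difference passed for 2 genes towards liver and 4 towards muscle. *Sqle* and *Cyp51*, enzymes of the later pathway, fell, with changes of -1.44 and -1.41 in liver and -0.50 and -0.56 in muscle. *Srebf2*, the factor that drives the pathway, fell too, with changes of -0.71 and -0.25. Liver P1 replicate 1 stood with the F22 arrays here, at 10.53 for *Sqle* against 7.65 to 8.02 in the other P1 arrays. Without it and muscle F22 replicate 5, 16 genes fell in each tissue, 14 falls were shared and the difference passed for 12 towards muscle. *Nsdhl*, a late enzyme, was the member with opposite changes, 0.28 in liver and -0.50 in muscle.

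**Figure D5:**
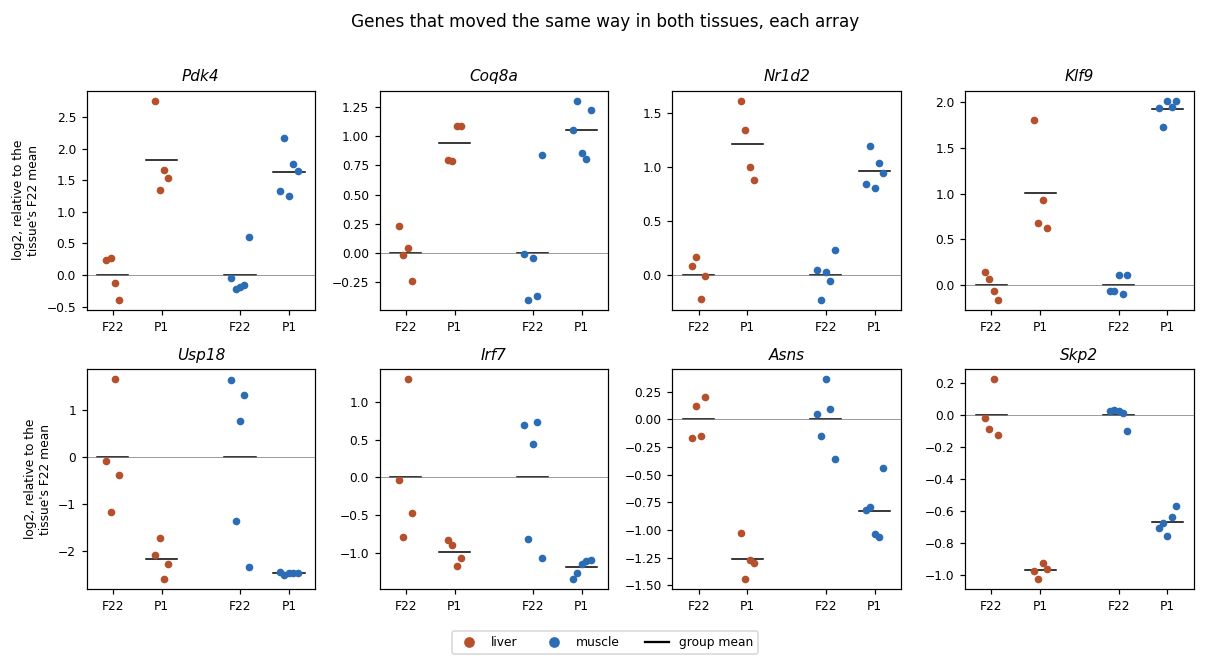
Each point is 1 array, given as log2 signal minus the F22 mean of its own tissue (y axis, scale differs between panels), with liver left and muscle right and black lines for group means. The upper 4 genes rose and the lower 4 fell in both tissues, and the F22 arrays of *Usp18* and *Irf7* are spread widely while their P1 arrays of muscle lie together.

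The interferon response fell in both tissues. In each tissue 14 of its 22 measured genes fell and 0 rose, and 11 falls were shared, with differences that passed for 1 gene towards liver and 3 towards muscle. *Usp18*, which removes the interferon-induced protein ISG15 from its targets, had the largest shared fall under the naming rule. It measured 8.64, 7.55, 10.39 and 8.35 in liver at F22 and 6.64, 7.01, 6.13 and 6.44 at P1. Its muscle values were 9.82, 6.82, 8.95, 9.50 and 5.84 at F22 and 5.73, 5.66, 5.70, 5.71 and 5.71 at P1. The ages did not overlap, but the muscle F22 arrays ran from 5.84 to 9.82, while the muscle P1 arrays lay between 5.66 and 5.73. The change was -2.17 ± 0.38 in liver and -2.49 ± 0.46 in muscle, with a difference of 0.31 ± 0.64 (adjusted p = 0.774). *Oas1a*, a sensor of double-stranded RNA, and *Irf7*, the regulator of interferon genes, were highest in the same arrays, replicate 3 of liver F22 and replicates 1, 3 and 4 of muscle F22. The changes in liver and muscle were -1.36 and -2.17 for *Oas1a* and -1.0 and -1.19 for *Irf7*. The *Oas1* genes are close copies whose probes may be shared, so that their single values are uncertain. The list thus separates some F22 arrays from the other F22 arrays as well as F22 from P1. With the 2 arrays that lay apart left out, 12 genes fell in liver and 15 in muscle, and 8 falls were shared, and the difference passed for 4 towards liver.

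The promoters of the interferon genes are shown because these genes moved together in both tissues. RefSeq promoters (build GRCr8, 250 bases before to 50 after the start) were found for 11968 of the tested genes and 16 of the interferon list. The core of the interferon-stimulated response element, GAAANNGAAA on either strand, was chosen after the values were seen. It stood in 10 of the 16 (62.5%) and in 408 of all 11968 (3.41%). Among all shared falls it stood in 24 of 424 promoters (5.66%). The 10 holders include *Ifit3*, a liver-led fall, *Psmb8* and *Rsad2*, called in liver alone, and *Ifih1*, without a call. The stretches around it in 4 genes with a shared fall are given 5′ to 3′ along the gene, with the matches in capitals, overlapping in *Oas1a* and *Oas1b*.
Irf7, chr1:205800053-205800122, minus strand: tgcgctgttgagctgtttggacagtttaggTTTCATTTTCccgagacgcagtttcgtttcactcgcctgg
Oas1a, chr12:41330395-41330470, plus strand: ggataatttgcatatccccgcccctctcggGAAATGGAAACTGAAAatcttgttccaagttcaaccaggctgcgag
Oas1b, chr12:41395866-41395941, minus strand: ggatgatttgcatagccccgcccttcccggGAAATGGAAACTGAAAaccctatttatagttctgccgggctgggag
Oasl2, chr12:47383297-47383366, minus strand: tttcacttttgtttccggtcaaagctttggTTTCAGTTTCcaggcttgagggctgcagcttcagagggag

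Of the immediate early genes 17 had a promoter, and the cyclic AMP response element TGACGTCA stood in 4 of them (23.5%) against 294 of all 11968 (2.46%). Among the muscle-led rises it stood in 18 of 313 (5.75%). The muscle-led rises *Dusp1*, a phosphatase of MAP kinases, and *Jund*, a partner of *Fos*, are shown with the element in capitals. *Ier2* and *Maff*, which had no call in either tissue, held it too.
Dusp1, chr10:17184699-17184766, plus strand: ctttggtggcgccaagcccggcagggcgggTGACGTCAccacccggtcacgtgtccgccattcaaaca
Jund, chr16:18769955-18770021, minus strand: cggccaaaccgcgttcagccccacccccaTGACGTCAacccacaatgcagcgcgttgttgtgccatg

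The clock motifs did not set the shared rises apart. The E-box CACGTG stood in 19 of 301 promoters of shared rises (6.31%) and in 7.87% of all, and the D-box TTATGNAA in 2.99% and 2.93%. In the clock list itself the E-box stood in 3 of 15 promoters (20%) and the D-box in 1 (6.67%). The direct repeat of AGGTCA with 1 base between, bound by PPAR alpha, and the glucocorticoid element of GAACA and TGTTC separated by 3 bases each stood in 4 of 11968 promoters, too few to compare.

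Opposite responses of other kinds were led by 2 sets of genes. *Ifi47*, an interferon-inducible GTPase, measured 11.08, 10.77, 11.09 and 10.55 in liver at F22 and 11.26, 12.13, 11.83 and 11.87 at P1, and in muscle 8.42 to 9.21 and then 7.91 to 8.39. It rose by 0.90 in liver and fell by 0.64 in muscle, unlike the interferon list. *Fzd8*, a receptor of Wnt ligands, rose by 1.05 in liver and fell by 0.49 in muscle, and *Klf12*, a repressor, rose by 0.46 and fell by 0.49. In the other direction *Fam13a* fell by 1.11 in liver and rose by 0.80 in muscle, and *Prnp*, the prion protein, fell by 0.57 and rose by 0.59. Among 25 hypoxia genes, liver had 2 rises and 9 falls and muscle 4 rises and 3 falls, and without the arrays that lay apart 15 fell in liver. Among them *Vegfa*, the endothelial growth factor, rose by 0.56 in liver and fell by 0.23 in muscle.

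Among the changes of muscle alone, *Ankrd1*, a stress-responsive protein of the sarcomere, measured 8.42, 8.28, 8.39, 8.27 and 8.13 at F22 and 9.54, 9.43, 9.34, 9.41 and 9.61 at P1, while its liver arrays lay between 6.24 and 6.53. The keratins *Krt25* and *Krt73*, known from hair follicles, rose in muscle by 1.35 and 1.18. None of 6 keratinocyte markers passed in either tissue, and their mean signal in muscle ranged from 11.67 to 12.28 at F22 and from 11.75 to 12.31 at P1. The part of skin in the muscle samples in these keratin rises was not tested. *Cx3cr1*, the fractalkine receptor of macrophages, and *Smad6*, an inhibitor of BMP signals, each fell in muscle, with changes of -0.90 there and of -0.12 and 0.20 in liver.

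The longer interval from F20 to P4, which also spans birth, was measured in other arrays. These gave no value to the birth changes but shared in the estimate of their spread, so that the calls of both intervals are not fully separate. Of the 4266 genes that passed the difference at birth, 3000 (70.3%) passed in the same direction and 172 (4.03%) in the opposite one, while 21.2% of all genes passed towards liver and 27.1% towards muscle. Of 374 shared rises 223 rose in both tissues between F20 and P4, and of 490 shared falls 348 fell in both. Over all genes 24.3% rose in liver and 21.8% in muscle in that interval, and 28.7% and 23.8% fell. Over this longer interval the difference was -0.07 for *Fam13a* (adjusted p = 0.742) and 1.12 for *Klf9*, against -0.92 for *Klf9* at birth. The interval also holds the changes from F20 to F22 and from P1 to P4. These values therefore do not show whether a change at birth lasted.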

How the data were processed

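The deposited values are log2 signals from robust multi-array averaging (RMA), which the authors ran in Affymetrix Expression Console (version not stated). Array medians lay close together within a tissue and apart between tissues. Changes are therefore taken as relative to each tissue's own arrays, and RMA compresses changes near background. Quantile normalisation again within each tissue gave 4304 differences, 4863 liver genes, 2803 muscle genes and 993 shared genes. Of 29214 probe sets, 15310 had 1 gene symbol in the platform annotation (15279 matched by gene ID), and 323 with several and 13581 without one were left out. Each of 14506 genes was represented by its probe set of highest mean (527 genes had several).

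Changes came from limma 3.58.1 (lmFit and eBayes, R 4.3.3) on 20 liver and 25 muscle arrays of 5 ages, and their difference in 1 fit of all 45 arrays, with Benjamini-Hochberg adjustment over all 15310 probe sets. In simulated data 67.2%, 100% and 98.5% of differences of 0.5, 1 and 2 log2 units were recovered, with 14 false calls among the 15310 probe sets. The simulation had independent normal noise, no arrays that lay apart and a true difference in only a small part of the probe sets. These shares therefore need not hold for the real arrays. Precision was limited by 4 or 5 arrays per group.

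Named genes were the 8 highest and 8 lowest differences and the 8 largest shared rises and falls. To these came the 5 largest opposite responses each way and the 5 largest bounded responses of each tissue and direction. Members of each list described, at most 6 except for fatty acid oxidation, where more are given, and the coenzyme Q genes were added. Shared and opposite genes had non-overlapping ages in both tissues, and bounded genes in the tissue that changed. For the highest and lowest differences non-overlap was asked only of a tissue whose own change passed. The text describes a part of the named genes. Members, lists and rules were chosen with earlier results of these data known.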

Additional observations from a re-analysis of the deposited data

Results flagged for a closer look

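Single arrays far from the other arrays of their group were looked for in 260 groups of arrays over 65 genes, and 26 were found, while chance alone marks about 1 in 20 groups. Of these, 11 lay in muscle F22, 9 in liver P1, 4 in muscle P1 and 2 in liver F22.

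Liver P1 replicate 1 was the array concerned for *Cyp3a23-3a1* (11.34), *Cyp3a2* (11.02), *Cyp4a1* (11.16), *Cyp8b1* (11.64), *Zbtb16* (10.55), *Coq10b* (10.01), *Prnp* (7.49) and *C3ar1*, a complement receptor (7), all log2 signals. Muscle F22 replicate 5 was the array concerned for *Pdk4* (9.83), *Pnpla2* (9.92), *Coq10a* (9.30), *Cyp4a1* (5.69), *Krt25* (7.29), *Hbe1* (8.31), *Prnp* (8.87), *Skp2* (10.85) and *Pou3f4*, a developmental factor (7.43). Among the other arrays, *Alox12*, a lipoxygenase, measured 7.63 in liver P1 replicate 2, *Coq4* 7.58 in liver F22 replicate 3 and *Cpa3*, a mast cell protease, 7.08 in liver F22 replicate 1. In muscle, *Coq10b* measured 8.16 in F22 replicate 2 and *Zbtb16* 9.36 in F22 replicate 3, while *Cyp2b1* measured 5.11 and *Slc1a4* 10.43 in P1 replicate 1, and *Fzd8* 9.34 and *Klf9* 9.90 in P1 replicate 2.

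The opposite responses with the largest smaller change differed between the tissues by limma's test of the difference. The difference, liver minus muscle in log2 units, was 1.54 for *Ifi47*, 1.54 for *Fzd8*, 1.15 for *Alox12*, 1.15 for *Aknad1* and 0.96 for *Klf12*. In the other direction it was -1.91 for *Fam13a*, -1.25 for *Cd36*, -1.16 for *Prnp*, -1.26 for *Tlr7*, a receptor of single-stranded RNA, and -1.59 for *Cpa3*.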

How the results depend on the processing

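Counts of genes moved most with the threshold. At an unadjusted p of at most 0.05 muscle had 4057 genes, 1460 were shared and 582 opposite. With changes of at least 1 log2 unit there were 443 differences, 469 liver genes, 61 muscle genes, 15 shared, 1 opposite and 343 of 1 tissue. Array weights gave 4930 liver genes, 4435 muscle genes, 1488 shared and 487 opposite. With probe sets above the median signal in both tissues, muscle had 1591 genes and 2225 were of 1 tissue, and the share of differences towards liver went from 40.3% to 28.9%.

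Leaving out 1 array at a time gave 3894 to 4638 differences, 4391 to 5260 liver genes, 1962 to 2728 muscle genes, 698 to 1060 shared, 180 to 342 opposite and 3044 to 3619 of 1 tissue. With the replicate number as a block there were 4207 differences, 4892 liver genes, 2322 muscle genes, 821 shared, 224 opposite and 3336 of 1 tissue. The deviations of same-numbered arrays from their group means had correlations of -0.070 to 0.092 (liver) and of 0.035 to 0.363 (muscle). The same-numbered P1 array was the best match for muscle F22 replicates 1 and 5 and liver F22 replicate 4. What arrays of the same number share was not tested. Of the values of single genes under the alternatives, 1943 kept their side of the threshold, 16 passed it newly and 14 lost it. None that passed in the main or the alternative setting changed direction, while changes of direction among values that passed in neither were not counted. The causes were not tested. The lists without the arrays that lay apart, and the interferon element, were chosen after seeing the data. Small changes near background are limited by the signal.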
